A study of Mus musculus with 6 samples.

Results

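The circadian clock genes are described here in Sertoli cells, the somatic cells of the seminiferous tubule that nurse germ cells and form the blood-testis barrier. The members were the rows of the deposited count table named Arntl, Clock, Per1, Per2, Per3, Cry1, Cry2, Nr1d1, Nr1d2 and Dbp. All 10 members were found among the 28262 genes of the table, and all 10 passed the filter on low counts. RNA-seq was performed on 3 libraries of Pa1F/F Sertoli cells (titled WT, with the genotype PA1flox/flox), which carry floxed Pa1 alleles and no Cre and served as the control. The other 3 libraries were from Amh-pa1-/- Sertoli cells (titled KO, with the genotype PA1-/-), in which a Cre recombinase driven by the promoter of Amh, a Sertoli cell hormone gene, removes the floxed Pa1. PA1 is a nuclear protein that associates with the MLL3/4 histone methyltransferase complex. All libraries came from untreated C57BL/6 cells, purified from testes of 20-day-old mice and cultured at 34 °C under 5% CO2, after which loose germ cells were washed off. How many mice went into a library, and the hour of day at which testes were taken, are not given in the sources used here. The p-values therefore measure only the spread between these libraries, which may be technical.

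The circadian clock is a feedback loop of transcription found in most mammalian cells. ARNTL (also called BMAL1) pairs with CLOCK and activates genes that carry E-box elements, among them the Per, Cry, Nr1d and Dbp genes. PER and CRY proteins then enter the nucleus and repress ARNTL and CLOCK, while the REV-ERB receptors encoded by Nr1d1 and Nr1d2 repress Arntl through ROR elements. DBP carries the rhythm to output genes through D-box elements, and in most tissues its transcript peaks when that of Arntl is low. The testis is known as an organ in which daily rhythms of clock transcripts are weak or hard to detect.

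Sequences that stand for these elements were looked up in the promoters that RefSeq gives for GRCm38.p6, from 250 bases before to 50 bases after each transcript start. The table held 13 windows for 9 of the 10 members, and Per2 had no entry. The letters CACGTG (E-box), CACGTT (a variant E-box), TTATGTAA (D-box) and TAGGTCA (ROR element) were searched on both strands, and none of these matches overlapped another. The E-box letters were in the windows of Cry1 and Per1, and stood in 7.15% of all 32851 windows and in those of 8.09% of all 27025 genes. The variant E-box was in the windows of Cry1, Cry2 and Nr1d1 (4.68% of all windows and 5.44% of genes), the D-box in that of Per3 (0.938% and 1.11%) and the ROR element in that of Arntl (2.61% and 2.97%). Each match is given within 30 bases of the gene's own strand, with the element in capitals. Elements of these kinds carry the loop described above.
Per1 E-box, chr11:69098771-69098800, plus strand: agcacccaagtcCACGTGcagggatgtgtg
Cry1 E-box, chr10:85185097-85185126, minus strand: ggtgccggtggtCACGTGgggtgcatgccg
Cry1 variant E-box, read as its reverse complement, chr10:85185116-85185145, minus strand: acacacttcagaAACGTGaggtgccggtgg
Cry2 variant E-box, read as its reverse complement, chr2:92434218-92434247, minus strand: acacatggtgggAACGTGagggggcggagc
Nr1d1 variant E-box, read as its reverse complement, chr11:98775388-98775417, minus strand: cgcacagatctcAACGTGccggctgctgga
Per3 D-box nearer to the start, chr4:151044805-151044834, minus strand: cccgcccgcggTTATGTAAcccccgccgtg
Per3 D-box farther from the start, chr4:151044852-151044881, minus strand: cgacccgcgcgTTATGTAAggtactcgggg
Arntl ROR element, chr7:113207530-113207559, plus strand: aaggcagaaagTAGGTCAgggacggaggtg
The Per3 D-boxes began 158 and 205 bases before the transcript start, and the Arntl ROR element began 30 bases after the later of its starts. The Per1 E-box lies before a RefSeq start inside the gene as the deposited table bounds it, since the table begins Per1 at 69095217, upstream of both of its windows. None of the searched letters stood in the window of Dbp, the member that differed most between the genotypes, nor in those of Clock and Nr1d2. The 250 bases before the Dbp transcript start, at chr7:45704997-45705246 on the plus strand, are given for comparison. The deposited table places the start of the Dbp gene upstream of this RefSeq start, at 45705088, so much of the stretch lies inside the gene as the table bounds it.
Dbp: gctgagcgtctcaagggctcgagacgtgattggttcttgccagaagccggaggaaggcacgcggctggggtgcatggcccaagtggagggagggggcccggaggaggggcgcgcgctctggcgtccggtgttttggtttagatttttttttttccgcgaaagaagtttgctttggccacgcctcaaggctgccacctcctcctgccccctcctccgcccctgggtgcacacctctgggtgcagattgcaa
A match of letters is a description and not a shown binding site.

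Total counts ranged from 13203757 to 16231443 per library, and 14919 genes were tested. Sertoli cell genes were plainly present, since all 12 markers of a fixed list reached 1 CPM (a count scaled to library size) in some library. The transcription factor Sox9 lay between 221 and 339 CPM and Clu, a secreted chaperone, between 7101 and 13197 CPM. Rhox5, an androgen-induced Sertoli cell gene, reached at most 1.05 CPM, so this marker was nearly absent. Amh, which maturing Sertoli cells turn off, had 12.6, 17.1 and 12.2 CPM in the Pa1F/F libraries and 2.95, 3.26 and 25.5 CPM in the Amh-pa1-/- libraries. The summed level of the Sertoli list was 15997 to 16363 CPM in Pa1F/F and 9851 to 12932 CPM in Amh-pa1-/- libraries, most of which was Clu. Of its 11 tested genes 2 were lower and 0 higher, and Wt1, a Sertoli cell transcription factor, had 350.5, 335 and 347 CPM in Pa1F/F and 409, 408 and 314 CPM in Amh-pa1-/- libraries. In bulk RNA fewer cells of a type and less RNA per cell cannot be told apart. Spermatid markers summed to between 6.36 and 7.69 CPM and spermatocyte markers to between 3.34 and 6.99 CPM in all libraries, with Acr, Acrv1, Prm1, Tnp2, Hormad1, Sycp1 and Spo11 under 1 CPM in every one. Within a genotype the libraries were unevenly spaced: the chi-square of the counts per degree of freedom was 2.46 between Pa1F/F replicates 1 and 3, but 24.6 and 22.7 between these and replicate 2. It was 1.74 between Amh-pa1-/- replicates 1 and 2, but 37.2 and 34.8 between these and replicate 3. Calls on the clock genes that changed without Amh-pa1-/- replicate 3 are given together after the single genes.

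Dbp fell 4.30-fold in Amh-pa1-/- Sertoli cells, Arntl fell by 29.5% on the mean normalized count, and Per2 rose by 49.5%. The other 7 members did not pass the test. At an adjusted p under 0.05 in edgeR's quasi-likelihood test, 2 members were lower and 1 was higher, as compared with 17.1% of all tested genes that were lower and 18.2% that were higher. The 3 of 10 members past the test are close to the background of 35.3%, so the number of clock genes that changed is not a result about the clock. When a log2 fold change of 1 or more in either direction was also required, Dbp alone was called, against 12.0% of all tested genes. That is 1 member lower (6.56% of all tested genes) and 0 members higher (5.44%). Normalized counts of the genotypes did not overlap for 6 of 10 members, Arntl, Per1, Per2, Cry2, Nr1d2 and Dbp, and for 52.4% of all tested genes. For each of these 6 an exact two-sided permutation test gave p = 0.1, the smallest that 3 against 3 libraries allow. Over the members the median log2 fold change was -0.12, and over all tested genes it was 0.00.

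**Figure D1:**
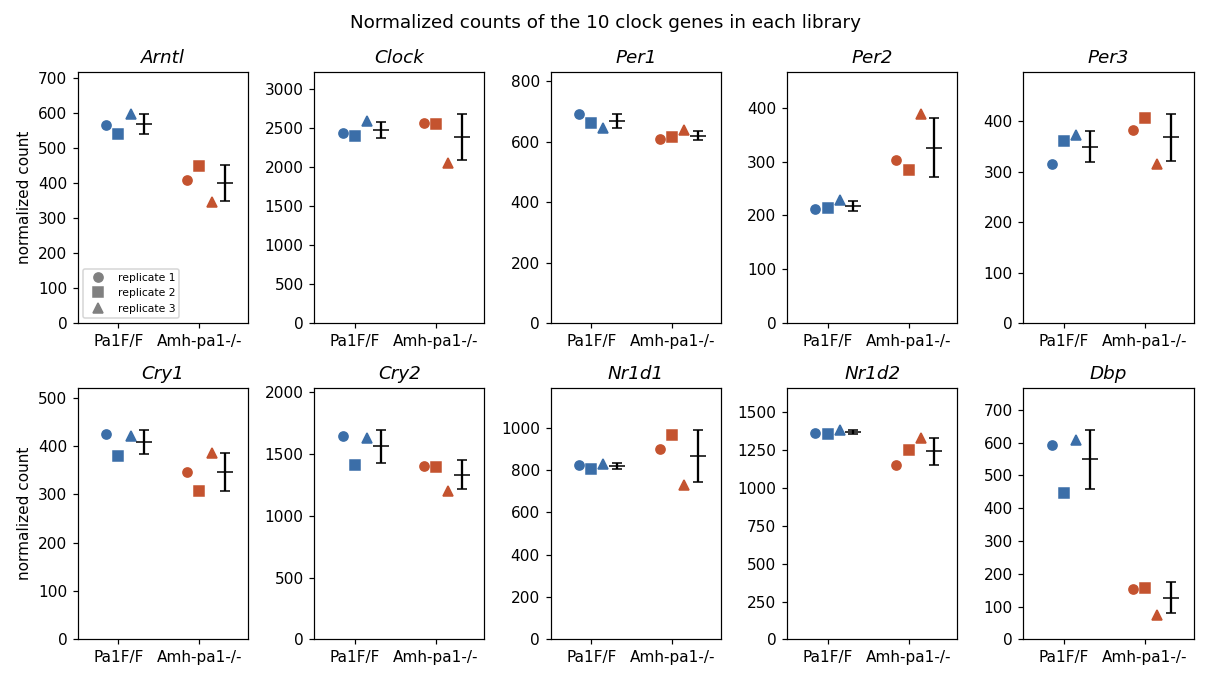
Normalized counts (counts corrected for library size) of each clock gene in the 3 Pa1F/F (blue) and 3 Amh-pa1-/- (orange) libraries, with a marker shape for each replicate number and, beside them, the mean with its SD in black. All axes start at 0. The groups are far apart for Dbp, separated for Arntl and Per2, and overlap or nearly meet for the other genes.

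Dbp (ENSMUSG00000059824, chromosome 7, 45705088 to 45710203 on GRCm38) encodes the D-box binding PAR bZIP activator that relays the clock to metabolic genes. It had 594, 446 and 607 normalized counts in the control libraries (replicates 1, 2 and 3 in order, here and for each gene), and 152, 157 and 74.2 in the Amh-pa1-/- libraries. Every Amh-pa1-/- library lay far below the lowest Pa1F/F library, and Amh-pa1-/- replicate 3 was the lowest of all. The mean fell from 549 ± 89.3 to 128 ± 46.4 (SD, n = 3 each), which is 4.30-fold lower. The fitted log2 fold change was -2.11 (SE 0.29, 95% interval from -2.78 to -1.43, edgeR adjusted p = 0.00224). In absolute size this exceeded the change of 96.6% of all tested genes. Without Amh-pa1-/- replicate 3 the log2 fold change was -1.83 (edgeR adjusted p = 0.000179), and Dbp passed under all 14 alternative settings. The 3' part of Dbp overlaps Sphk2, a sphingosine kinase gene on the other strand, by 737 bases. Sphk2 itself had a log2 fold change of -0.34 (edgeR adjusted p = 0.0222), and reads of the shared bases cannot be told apart if the counting ignored strand.

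Arntl (ENSMUSG00000055116, chromosome 7, 113207465 to 113314126) encodes the activator without which the clock stops. Normalized counts were 566, 542 and 599 in the Pa1F/F libraries and 408, 449.6 and 347 in the Amh-pa1-/- libraries. The groups did not overlap, and Amh-pa1-/- replicate 3 was again the lowest. The means were 569 ± 28.5 and 401 ± 51.7 (SD, n = 3 each), giving a log2 fold change of -0.50 (SE 0.11, 95% interval from -0.76 to -0.24, edgeR adjusted p = 0.0128). The change was under the fold threshold of 1. It passed under 12 of 14 alternatives and missed without Pa1F/F replicate 3 (edgeR adjusted p = 0.0528) and with the counts of the close pairs of libraries summed (edgeR adjusted p = 0.0938).

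Clock (ENSMUSG00000029238, chromosome 5, 76209868 to 76304792) encodes the partner of ARNTL. It had 2431, 2396 and 2580.0 normalized counts in the Pa1F/F libraries, and 2559, 2549 and 2047 in the Amh-pa1-/- libraries. Replicates 1 and 2 of Amh-pa1-/- lay inside the Pa1F/F range and replicate 3 below it. Its log2 fold change was -0.05 with a 95% interval from -0.27 to 0.17 (edgeR adjusted p = 0.711), and this interval leaves room for a change of either sign but not for one of the size of Arntl's estimate. Without Amh-pa1-/- replicate 3 the value was 0.051 (edgeR adjusted p = 0.406). Thus the level of Arntl fell while a fall of its partner was not detectable here. The difference between the changes of these genes was not tested.

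Among the Per genes, which encode the rhythmic repressors of the loop, Per2 alone passed the test. Per2 (ENSMUSG00000055866, chromosome 1, 91415982 to 91459324) had 211, 214 and 229 normalized counts in the Pa1F/F libraries and 304, 285 and 389 in the Amh-pa1-/- libraries. The control libraries were tightly spaced, every Amh-pa1-/- library lay above them, and Amh-pa1-/- replicate 3 was the highest. The means were 218 ± 9.41 and 326 ± 55.3 (SD, n = 3 each), giving a log2 fold change of 0.58 (SE 0.14, 95% interval from 0.26 to 0.90, edgeR adjusted p = 0.0165). It missed the test without Pa1F/F replicate 1 (edgeR adjusted p = 0.0627) and with the close pairs summed (edgeR adjusted p = 0.0848).

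Per1 (ENSMUSG00000020893, chromosome 11, 69095217 to 69109960), the Per gene best known for its fast induction by hormones, had 692, 663 and 646 normalized counts in Pa1F/F and 607, 616 and 637 in Amh-pa1-/- libraries. The groups did not overlap but came within a few percent of each other. Its log2 fold change was -0.11 with a 95% interval from -0.26 to 0.05 (edgeR adjusted p = 0.248). Per3 (ENSMUSG00000028957, chromosome 4, 151003652 to 151044665), whose loss disturbs the core rhythm less than that of the other Per genes, had 314, 361 and 371 normalized counts in Pa1F/F and 382, 406 and 316 in Amh-pa1-/- libraries. Its groups overlapped. For Per3 the fitted value was 0.08 on the log2 scale with a 95% interval from -0.22 to 0.37 (edgeR adjusted p = 0.670). On the same strand Per3 overlaps the long gene Camta1, which rose (log2 fold change 0.62, edgeR adjusted p = 0.00629), so intronic reads of Camta1 are not separable from Per3 by strand.

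The cryptochromes, which block ARNTL and CLOCK directly and hold the repressed phase, lay slightly lower in Amh-pa1-/- cells without passing the test. Cry1 (ENSMUSG00000020038, chromosome 10, 85131700 to 85185064) had 424, 379 and 421 normalized counts in Pa1F/F and 346, 308 and 385 in Amh-pa1-/- libraries. Amh-pa1-/- replicate 3 lay just above the lowest control library. For Cry1 the log2 fold change was -0.24 with a 95% interval from -0.49 to 0.02 (edgeR adjusted p = 0.132). Cry2 (ENSMUSG00000068742, chromosome 2, 92403646 to 92434043) had 1646, 1410.2 and 1629 normalized counts in Pa1F/F and 1402, 1394 and 1196 in Amh-pa1-/- libraries. Pa1F/F replicate 2 lay close to the upper Amh-pa1-/- libraries, and the groups barely separated. For Cry2 it was -0.23 (95% interval from -0.45 to -0.02, unadjusted), with an edgeR adjusted p of 0.0885. Without Pa1F/F replicate 2 it was -0.30 (edgeR adjusted p = 0.0457).

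The REV-ERB genes, heme-binding nuclear receptors that repress Arntl, did not pass the test, and their fitted changes had opposite signs. Nr1d1 (ENSMUSG00000020889, chromosome 11, 98767932 to 98775333) had 823, 802 and 829.6 normalized counts in Pa1F/F and 901, 967 and 728.5 in Amh-pa1-/- libraries. Amh-pa1-/- replicates 1 and 2 were above all controls and replicate 3 below all of them, so the fitted log2 fold change was 0.08 (95% interval from -0.18 to 0.34, edgeR adjusted p = 0.599). Nr1d1 shares 1075 bases with Thra, the thyroid hormone receptor gene on the other strand, whose count was also set apart in Amh-pa1-/- replicate 3, at 1778 against 1058 and 936 in replicates 1 and 2. Nr1d2 (ENSMUSG00000021775, chromosome 14, 18204054 to 18239127) had 1362, 1359 and 1382 normalized counts in Pa1F/F and 1151, 1248 and 1328 in Amh-pa1-/- libraries. All Amh-pa1-/- libraries lay below the controls, by a small margin for replicate 3. Nr1d2 had a log2 fold change of -0.14 with a 95% interval from -0.29 to 0.02 (edgeR adjusted p = 0.141).

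**Figure D2:**
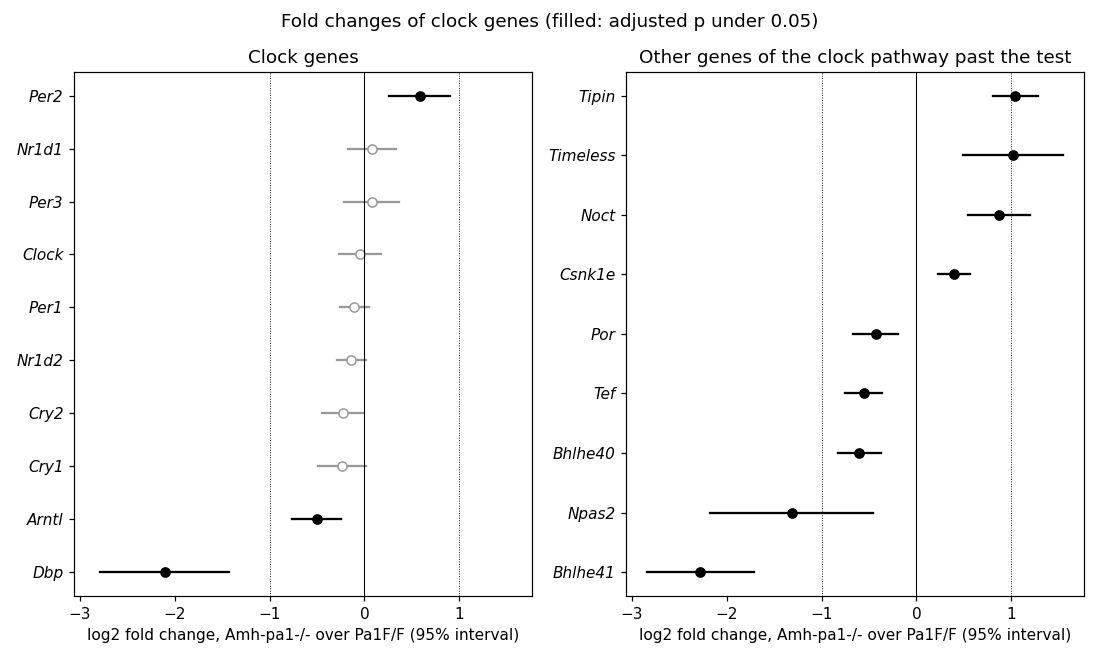
Log2 fold change of Amh-pa1-/- over Pa1F/F with its 95% interval for the 10 clock genes (left) and the 9 genes of the wider clock list that passed the test (right). Filled black points passed an adjusted p of 0.05 in edgeR's test, open grey points did not, and dotted lines mark the fold threshold of 1 in either direction. Dbp and Bhlhe41 lie farthest to the left, at -2.11 and -2.28.

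Amh-pa1-/- replicate 3 stood at the edge for several members. It was the highest or lowest of the 6 libraries for Arntl, Clock, Cry2, Dbp, Nr1d1 and Per2, that is for 6 of 10 members, while it held that place for 47.8% of all tested genes. Pa1F/F replicate 1 held it for 5 of 10 members (26.8% of all tested genes), replicate 2 for 0 (37.6%) and replicate 3 for 4 (29.1%). Amh-pa1-/- replicates 1 and 2 held it for 2 (29.7%) and 3 (28.8%). The gap of Amh-pa1-/- replicate 3 to the mean of the other Amh-pa1-/- replicates had a median absolute log2 size of 0.31 over the members and of 0.23 over all tested genes. For Dbp the gap was -1.06, larger than that of 91.9% of tested genes. Without this library 6 members passed the test, against 43.1% of all tested genes. Cry1 (log2 fold change -0.32, edgeR adjusted p = 0.0351) and Nr1d2 (-0.19, edgeR adjusted p = 0.0343) then passed as lower and Nr1d1 (0.19, edgeR adjusted p = 0.0433) as higher, beside Dbp, Arntl and Per2. Cry1, Nr1d1 and Nr1d2 passed under 1 of 14 alternatives each, Arntl and Per2 under 12 and Dbp under 14.

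**Figure D3:**
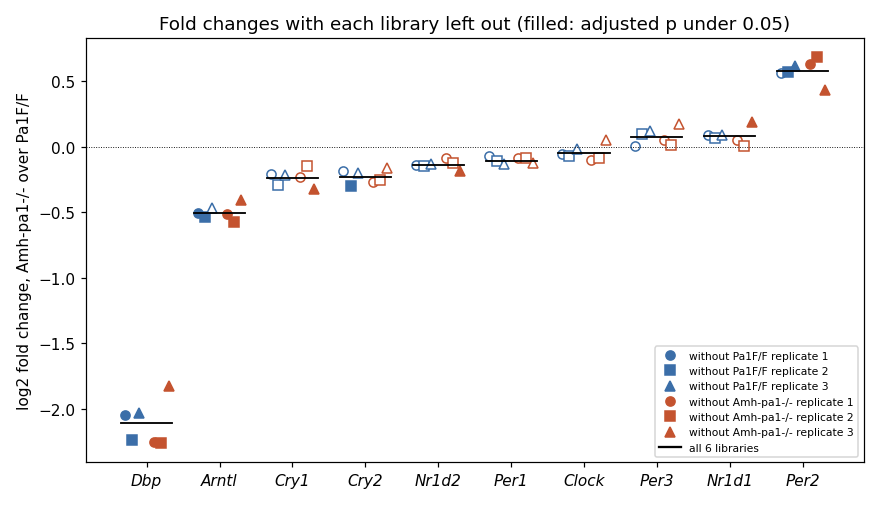
Log2 fold change of each clock gene with 1 library left out, by library (marker and colour), with the value from all 6 libraries as a black line and filled markers where the adjusted p was under 0.05. Dbp stays between -2.26 and -1.83 and Per2 between 0.44 and 0.68, while Clock crosses 0 without Amh-pa1-/- replicate 3.

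A ratio of counts within a library needs no library size. The ratio of Dbp to Arntl counts, an output gene over the activator whose rhythms run opposite to each other in most tissues, was 1.05, 0.823 and 1.01 in the Pa1F/F libraries and 0.373, 0.348 and 0.214 in the Amh-pa1-/- libraries. On the log2 scale it was -0.06 ± 0.19 and -1.72 ± 0.44 (SD, n = 3 each). Every Amh-pa1-/- library was below every Pa1F/F library, a difference of -1.66 (exact two-sided permutation test, p = 0.1, the smallest that 3 against 3 allows). Both genes were lower in Amh-pa1-/- cells, so that the pair did not move in opposite directions, and the fitted fall of Dbp was the larger. The ratio of Per2 to Arntl, chosen after its values were seen, was 0.373, 0.395 and 0.382 in Pa1F/F and 0.744, 0.634 and 1.12 in Amh-pa1-/- libraries. Control libraries were nearly identical in this ratio and all Amh-pa1-/- libraries were above them, by 1.08 on the log2 scale. This separation follows from the values of Per2 and Arntl themselves, which lie apart in opposite directions, and it is a description with no test.

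**Figure D4:**
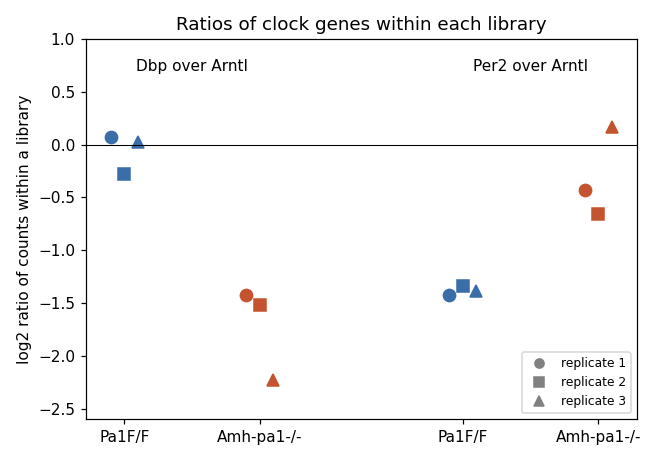
Log2 ratio of the counts of Dbp to Arntl (left) and of Per2 to Arntl (right) within each library, with Pa1F/F in blue, Amh-pa1-/- in orange and a marker shape for each replicate. Amh-pa1-/- libraries lie lower for Dbp over Arntl and higher for Per2 over Arntl, with replicate 3 farthest from the controls in both.

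Levels of different genes were compared as reads per kilobase of exon, scaled to library size (RPKM). In Pa1F/F cells Nr1d1 stood highest at 17.1 ± 0.376, followed by Cry2 (12.3 ± 1.10), Dbp (10.7 ± 1.79), Nr1d2 (10.2 ± 0.127) and Clock (9.69 ± 0.411), then Per1 (5.90 ± 0.220), Cry1 (5.55 ± 0.365) and Arntl (3.33 ± 0.179), and last Per3 (2.25 ± 0.190) and Per2 (2.25 ± 0.0999), all as mean ± SD with n = 3. The replicates of Cry2, Dbp, Nr1d2 and Clock overlapped from neighbour to neighbour, as did those of Per1 and Cry1 and those of Per3 and Per2. In Amh-pa1-/- cells Nr1d1 was again highest (18.1 ± 2.23). Dbp dropped from the third to the eighth place (2.49 ± 0.867), among the lowest members Per2 (3.39 ± 0.653), Per3 (2.38 ± 0.256) and Arntl (2.36 ± 0.260), whose replicates overlapped from neighbour to neighbour. Exon lengths were the union over all annotated transcripts of a later annotation, so this order is approximate.

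Other genes of the pathway came from a fixed list of 25, of which 24 were tested and Rorb was too low. At an adjusted p under 0.05, 5 were lower and 4 were higher, and 9 of 24 is again close to the 35.3% of all tested genes. Its median log2 fold change was -0.18, and 17 of 24 genes did not overlap between the genotypes (52.4% of all tested genes). Among the other repressors, Bhlhe41 and Bhlhe40, which encode the DEC factors that compete with ARNTL and CLOCK for E-boxes, both fell. Bhlhe41 had 454, 594 and 437 normalized counts in Pa1F/F and 129, 107 and 70.1 in Amh-pa1-/- libraries, with no overlap. Its log2 fold change of -2.28 (SE 0.24, edgeR adjusted p = 0.000849) was of the same order as that of Dbp, and it passed under all 14 alternatives. Bhlhe40 was much more abundant, at 2789, 3243 and 2766 in Pa1F/F and 1811, 1834 and 2154 normalized counts in Amh-pa1-/- libraries. It fell by 0.60 on the log2 scale (edgeR adjusted p = 0.00392) and passed under 13 of 14 alternatives. Ciart, a further repressor of ARNTL and CLOCK, did not pass (log2 fold change -0.49, edgeR adjusted p = 0.155).

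Tef, a PAR bZIP factor that binds the same D-boxes as Dbp, fell as well. It had 1825, 2137 and 1790.3 normalized counts in Pa1F/F and 1239, 1315 and 1364 in Amh-pa1-/- libraries, without overlap. Its log2 fold change was -0.55 (edgeR adjusted p = 0.00315), smaller than that of Dbp. Hlf, the remaining PAR bZIP gene of the list, had between 7 and 24 counts per library and was too low to show a change (95% interval of the log2 fold change from -1.16 to 0.96). Nfil3, which represses through D-boxes, had 645, 566 and 560.1 normalized counts in Pa1F/F and 338, 379.7 and 799.6 in Amh-pa1-/- libraries, so that replicate 3 stood apart. Its log2 fold change was -0.22 with all libraries (edgeR adjusted p = 0.618) and -0.72 without Amh-pa1-/- replicate 3 (edgeR adjusted p = 0.00148).

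Among the other activators, Npas2, a paralogue of Clock, fell from 38.1, 23.2 and 55.6 normalized counts to between 13.7 and 18.0. Its log2 fold change of -1.32 (edgeR adjusted p = 0.0301) passed under 7 of 14 alternatives, and the gene had at most 53 counts in a library. It missed without Pa1F/F replicate 1 or 3 or Amh-pa1-/- replicate 1 or 2 (edgeR adjusted p from 0.0671 to 0.0957), in limma-voom (adjusted p = 0.0527) and with the close pairs summed (edgeR adjusted p = 0.157). Arntl2 and Rora did not pass (edgeR adjusted p = 0.0689 and 0.0790), though Rora did without Amh-pa1-/- replicate 2 (0.0496). Of the kinases and ubiquitin ligases that set the lifetime of PER and CRY, only Csnk1e passed, at 693, 645 and 645 normalized counts in Pa1F/F and 884, 902 and 821 in Amh-pa1-/- libraries. It encodes casein kinase 1 epsilon, which phosphorylates PER, and rose by 31.5% (log2 fold change 0.39, edgeR adjusted p = 0.00590). Csnk1d, Gsk3b, Btrc and Fbxw11 were among those that did not pass.

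The clock-associated factors Timeless and Tipin both rose. Timeless had 123, 157 and 122 normalized counts in Pa1F/F and 233, 219.7 and 361 in Amh-pa1-/- libraries (log2 fold change 1.02, edgeR adjusted p = 0.0125). Tipin had 296, 306 and 279 in Pa1F/F and 591, 549.8 and 674 in Amh-pa1-/- libraries (log2 fold change 1.04, edgeR adjusted p = 0.000657). With all 6 libraries both lay just past the fold threshold of 1, but without Amh-pa1-/- replicate 3 neither did (0.76 for Timeless and 0.96 for Tipin). Timeless was also under it without Pa1F/F replicate 1 (0.97) or 3 (0.95) and in limma-voom (0.995). The products of these genes form a complex that protects replication forks, and in mammals that role is better established than one in the clock. Of the clock-controlled genes, Noct, a rhythmic phosphatase of NADPH, rose (log2 fold change 0.87, edgeR adjusted p = 0.00414, and 1.01 without Amh-pa1-/- replicate 3) and Por, cytochrome P450 reductase, fell (-0.43, edgeR adjusted p = 0.0156). Timeless and Por missed the test without Pa1F/F replicate 1 (edgeR adjusted p = 0.0527 and 0.0634) and without Pa1F/F replicate 3 (0.0529 and 0.0530). Usp2, Wee1 and Nampt did not pass, and Nampt was set apart by Pa1F/F replicate 2, at 1923 normalized counts against 619.8 and 704 in the other controls. Without that library the log2 fold change of Nampt turned from -0.18 to 0.53 and passed (edgeR adjusted p = 0.0149). Without Amh-pa1-/- replicate 3, 14 of the 24 genes passed (43.1% of all tested genes did), 10 of them lower, with Btrc, Csnk1d, Fbxw11, Nfil3 and Wee1 added and none lost. Among the added genes Wee1 moved from -0.24 to -0.42 on the log2 scale, while Btrc, Csnk1d and Fbxw11 lay between -0.23 and -0.15.

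Glucocorticoids induce Per1 and can set clocks in peripheral tissues, and the receptor gene with 6 of its known targets was fixed as a list for this reason. The target Zbtb16 was too low to be tested. Of the 6 tested genes, which include the receptor gene, only Fkbp5, a cochaperone of the receptor, passed (35.3% of all tested genes did). It had 4981, 5045 and 4985 normalized counts in Pa1F/F and 2168, 2006 and 2056 in Amh-pa1-/- libraries (log2 fold change -1.27, edgeR adjusted p = 5.24e-05). Nr3c1, Tsc22d3, Klf9, Sgk1 and Errfi1 did not pass, and their fitted log2 fold changes lay between -0.60 and 0.19.

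The profile of Dbp over the 6 libraries was compared with that of 11708 other genes whose mean normalized count reached 50. The 5 most similar were Chst1, Pcyt1a, Ppfibp1, Itgax and Steap3, with Pearson's r of log2 CPM between 0.998 and 0.999. Chst1 had 272, 155 and 240.2 normalized counts in Pa1F/F and 29.3, 30.4 and 8.02 in Amh-pa1-/- libraries, with the same low Pa1F/F replicate 2 and Amh-pa1-/- replicate 3 as Dbp. In all, 713 genes reached an r above 0.95 over these 6 libraries, which all genes share, so the likeness is a description only.

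Markers of several other cell types moved with the genotype, although no marker was at 0 in every library. All 4 tested genes of the 8 Leydig cell markers were lower, and the summed level of that list was 976 to 1079 CPM in Pa1F/F and 292 to 437 CPM in Amh-pa1-/- libraries, while the defining Leydig genes Cyp17a1, Insl3, Lhcgr and Hsd3b6 were under 1 CPM in all. Of the 6 tested macrophage markers 5 were lower (121 to 132 against 76.4 to 91.6 CPM). Peritubular myoid markers, of which 1 of 5 tested was higher, summed to 219.7 to 283 CPM in Pa1F/F and to 819 to 1301 CPM in Amh-pa1-/- libraries, with the highest sum in Amh-pa1-/- replicate 3. Endothelial markers summed to 116 to 121 and to 63.1 to 104 CPM (1 of 4 tested higher and 2 lower), with Amh-pa1-/- replicate 3 nearest to the controls. Spermatogonial markers (2 of 3 tested lower) overlapped between the genotypes in their sum, at 190.1 to 219 CPM in Pa1F/F and 187, 197 and 104 CPM in Amh-pa1-/- libraries, of which replicate 3 alone stood apart. Of the 8 spermatogonial markers 4, Zbtb16, Stra8, Sohlh1 and Dmrtb1, were under 1 CPM in all libraries. So were Tagln of the myoid, Emcn and Tek of the endothelial and Cd163 of the macrophage markers. The sums of these lists therefore rest on their other genes. The part of these cell types in the values of Dbp, Arntl and Per2 was not tested.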

How the data were processed

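RNA-seq libraries of Sertoli cells were compared as 3 Pa1F/F against 3 Amh-pa1-/- replicates, which the sample titles call WT and KO. Per the study's methods and the submitters' processing notes, the authors aligned reads to GRCm38 with HISAT2 2.1.0, counted reads per gene with HTSeq 0.6.0, and deposited the counts without normalization. The strand setting is not given in the sources used here. The table also holds the authors' own fold changes and p-values, which were not used. Pa1 itself was not analysed here, so the genotype rests on the labels.

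Genes were filtered with filterByExpr (minimum count 10, minimum total 15), normalized by TMM (factors 0.990 to 1.03) and tested with edgeR 4.0.16's quasi-likelihood test in R 4.3.3, with Benjamini-Hochberg adjustment over all 14919 tested genes. TMM centres most genes on no change. Normalized counts are counts over the effective library size, scaled to its mean. The steps were tested on simulated data with the same dispersion for every gene and library. Unevenly spaced libraries such as these were not simulated, so error rates with them were not tested. Alternatives were DESeq2 1.42.0, limma-voom (limma 3.58.1), other scalings, filters and libraries left out. At these depths 3 counts correspond to between 0.185 and 0.227 CPM, a floor that covers counting error only, while the 95% intervals of the fits rest on the spread between libraries. Exon lengths came from GENCODE. Genes named were all members, list genes past the adjusted p, and the 5 most like Dbp. Other list genes and Sertoli markers were named after their values were seen. The members and lists were chosen with earlier results of these data known. Some genes of the wider list are counted but not reported here by name.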

Additional observations from a re-analysis of the deposited data

How the results depend on the processing

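All members but Clock kept their direction under 14 alternatives, and Dbp its adjusted p under 0.05. With the close pairs of libraries summed, which leaves 2 libraries per genotype, 883 genes were called, 1382 passed the adjusted p alone, and 1 member and 2 genes of the wider list passed, while Arntl (-0.52) and Per2 (0.67) did not. The 2 genes of the wider list were Bhlhe41 and Tipin. Of the 14 alternatives, Bhlhe40, Tef, Csnk1e and Noct missed in this one alone (edgeR adjusted p = 0.0678, 0.0561, 0.0791 and 0.0630). Where the change itself was tested against the fold threshold (glmTreat), 538 genes were called, Dbp among them. Without Amh-pa1-/- replicate 3, 6 members and 14 genes of the wider list passed, and Clock turned to 0.051. The causes were not tested.

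With 1 library left out, 1466 to 2076 genes were called and 3450 to 6617 passed the adjusted p alone (3450 without Pa1F/F replicate 1), as did 2 to 6 members and 6 to 14 genes of the wider list. The log2 fold changes ranged from -2.26 to -1.83 for Dbp, -0.58 to -0.41 for Arntl, 0.44 to 0.68 for Per2, -0.10 to 0.051 for Clock, -0.32 to -0.14 for Cry1, -0.30 to -0.16 for Cry2, 0.0092 to 0.19 for Nr1d1, -0.19 to -0.083 for Nr1d2, -0.13 to -0.07 for Per1 and 0.01 to 0.18 for Per3. The log2 Dbp to Arntl difference ranged from -1.81 to -1.41.

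The sources used here give no link between same-numbered libraries of the genotypes beyond the number. Deviations of same-numbered libraries from the group means correlated by 0.11, -0.16 and -0.18, and those of differently numbered libraries by -0.17 to 0.21. A library stood apart in each genotype, so these values cannot show whether same-numbered libraries shared a litter, day or batch. With the replicate number as a block, 3 members passed, the log2 fold changes of Dbp, Arntl and Per2 were -2.15, -0.51 and 0.57, and 25.5% of all tested genes passed as compared with 35.3%. Npas2 lost its call under the block (adjusted p = 0.0694) and Timeless, at 0.99, its place past the fold threshold.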
